A study of Mus musculus with 45 samples.

Results

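Xenobiotic metabolism enzymes were followed as gene families in RNA-seq of epithelium from the mouse colon, which is the layer of cells facing the gut contents. A gene entered when its symbol in the deposited table of gene counts began as Cyp1 to Cyp4 (with a subfamily letter and a gene number), Ugt1, Ugt2, Gst of the alpha, mu, pi, theta, zeta, kappa or omega class, Mgst or Sult. This rule used no measured value, but the members were chosen with earlier results of these data known. It found 134 of 24918 gene entries, and 65 of them had enough counts to be tested among 12961 tested genes. Male C57BL/6 mice (C57BL/6J in the study's methods) entered the regimens at 6 weeks of age. Control mice (LF) ate a low-fat diet, with 10% fat, for 20 weeks, obese mice (HF) a high-fat diet, with 60% fat, for 20 weeks, and formerly obese mice (HFLF) were switched, after 15 weeks of high-fat feeding, to 5 weeks of the low-fat diet. Lard was the fat of both diets, all mice were male, and the epithelium was lifted off the whole colon with EDTA, so the levels average over the length of the colon. Each group had 5 libraries, 1 per mouse. Bisulfite sequencing of the same groups was deposited too, and its list of differentially methylated regions between HF and LF was read near these genes.

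Enzymes of these families clear drugs, plant compounds, bile acids, steroids and oxidised lipids. Cytochromes P450 (Cyp) add oxygen to the substrate with electrons from the reductase Por, and some members act on arachidonic acid and other fatty acids as well. Glucuronosyltransferases (Ugt), glutathione S-transferases (Gst, and Mgst in membranes) and sulfotransferases (Sult) then attach a sugar acid, glutathione or sulfate, and efflux pumps carry the products out of the cell. The receptors AhR, PXR (Nr1i2) and CAR (Nr1i3) and the factor NRF2 (Nfe2l2) are the known switches of many of these genes, and the intestine is among their main sites outside the liver.

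The libraries held 15230391 to 22762095 gene counts, and HFLF replicate 3 was the deepest. Levels are CPM, a gene's counts relative to the scaled total of its library, and members took 0.783% to 0.882% of the counts in LF, 0.754% to 0.805% in HF and 0.847% to 0.948% in HFLF. Epithelial markers (Epcam, Cdh1, Krt8, Krt18, Krt20, Vil1) were all present, with summed levels of 9990 to 11900 CPM, and 1 of the 6 was called higher in HFLF than in LF. The 5 smooth muscle markers together stayed at or below 2.39 CPM. Goblet markers summed to 9430 to 12800 CPM in LF, 9800 to 12400 in HF and 9730 to 13200 in HFLF, with no call. Stem cell markers had no call either, and 1 of 7 enteroendocrine markers was called lower in HFLF than in HF. Some other marker lists differed between groups. Colonocyte markers (Car1, Car4, Slc26a3, Aqp8, Ceacam20, Slc9a3) summed to 4630 to 9920 CPM in LF, 5300 to 9330 in HF and 7390 to 12400 in HFLF, where 4 of 6 were called higher than in LF. In HF against LF none of them was called (median log2 fold change 0.0075). Small intestine markers summed to 712 to 1080 CPM in LF, 916 to 1240 in HF and 1120 to 1410 in HFLF, where 5 of 7 tested genes were called higher than in LF. The rest of the 11 listed genes had too few counts to be tested, and 1 had no count in any library. Posterior Hox genes, which mark the distal gut, summed to 484 to 605 CPM in LF, 423 to 549 in HF and 351 to 455 in HFLF, where 6 of 8 were lower than in LF. Their part in the results on the enzymes was not tested. In bulk samples, fewer cells of a type and less RNA per cell cannot be told apart.

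**Figure D1:**
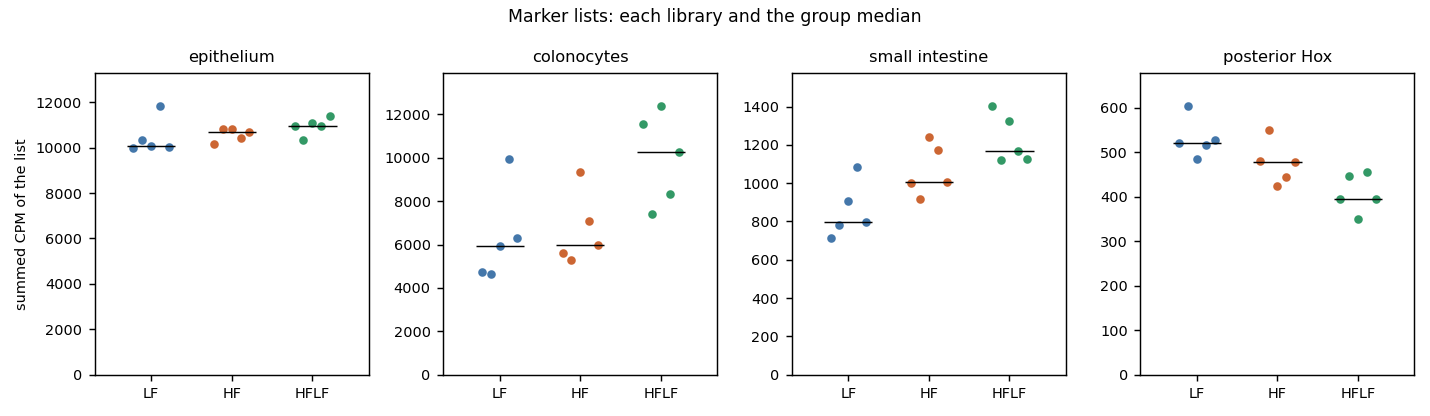
Summed CPM of 4 marker lists (vertical axes) in each RNA-seq library, by group; the horizontal line is the group median. Epithelial markers overlap between groups, posterior Hox genes are lower in all HFLF libraries (351 to 455 CPM) than in all LF libraries (484 to 605 CPM), and small intestine markers are higher (1120 to 1410 against 712 to 1080 CPM).

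The tested members spanned from 0.214 to 500.3 CPM per kb of exon sequence that no other listed gene shares. The scale divides by gene length, so that levels of different genes can be set side by side. For genes with shared exons or near-identical copies, the level depends on how shared reads were counted. That was not given in the sources used here, so the places of Ugt1a, Cyp2c, Cyp2d and Gstm genes are uncertain. In all, 12 members lay over 100 CPM per kb and 7 under 1, and the 10 highest by CPM held 62.5% of the summed member CPM. The highest per kb was Cyp2c55, a gut-expressed P450 that oxidises arachidonic acid, at 500.3 CPM per kb. Close to it were Sult1a1, the main phenol sulfotransferase, at 489, Mgst3, a membrane glutathione transferase, at 485, and Gsto1, an omega-class transferase, at 453. In CPM, Mgst3 stood at 544 ± 65.7 in LF, 503 ± 18.2 in HF and 548 ± 32.8 in HFLF (mean ± SD, n = 5, as for all values given with ± here), and was not called in any comparison. Ugt2b34 led the glucuronosyltransferases at 315 CPM per kb, before Ugt1a7c at 218 and Ugt1a1, the bilirubin-conjugating form, at 70.5. Of the P450 genes, Cyp2d34 (158), Cyp2c65 (125), Cyp4f14 (96.8), which inactivates leukotriene B4, and Cyp3a13 (78.2), the gut form of the Cyp3a drug-metabolising subfamily, followed Cyp2c55.

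**Figure D2:**
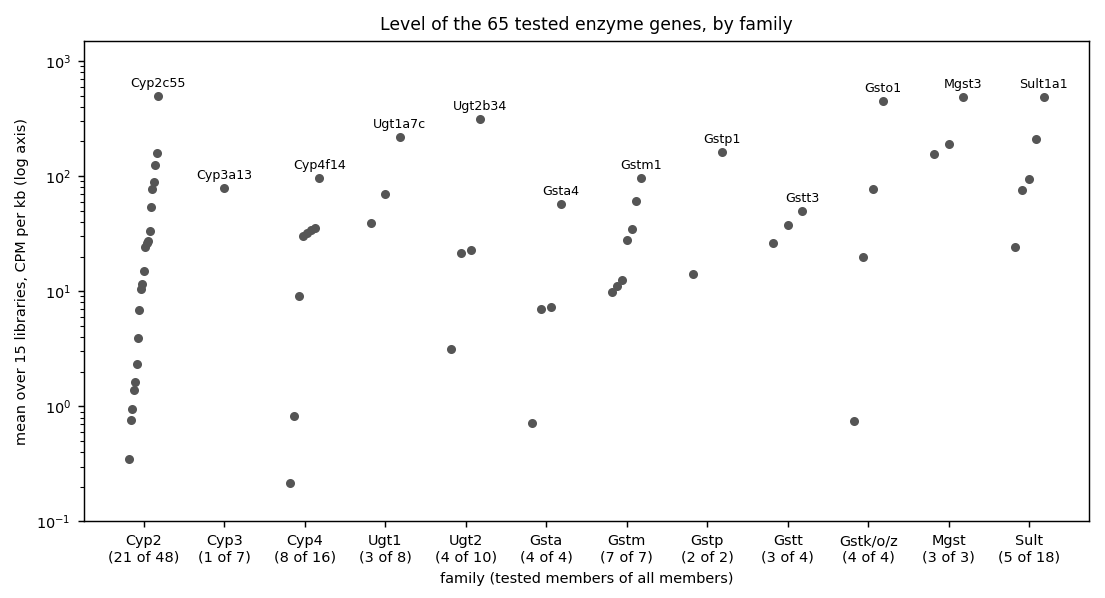
Mean level of the 65 tested genes over all 15 libraries in CPM per kb of unshared exon sequence (vertical log axis), by family; each point is a gene and the highest of each family is named. Levels run from 0.214 to 500.3 CPM per kb, and no Cyp1 gene was tested.

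Families differed in how many members were measurable. All 4 Gsta, all 7 Gstm, both Gstp, all 3 Mgst and all 4 Gstk, Gsto and Gstz genes were tested, against 21 of 48 Cyp2, 8 of 16 Cyp4, 1 of 7 Cyp3, 5 of 18 Sult, 3 of 8 Ugt1 and 4 of 10 Ugt2 genes. Of the 69 members not tested, 18 had no count in any library, which allows up to 0.0119 CPM over all libraries (3 counts of the total, for counting error only), and the other 51 had at most 122 counts in total. The 18 included Cyp1a2, a classic AhR target of the liver, Cyp2b9 and Cyp2b13, and Ugt2a2. Cyp3a11 and Cyp2e1, both abundant in liver, had 21 and 19 counts in all 15 libraries together. The 7 liver markers summed to 59.2 to 79.3 CPM in LF, 66.6 to 92.4 in HF and 56.9 to 76.3 in HFLF. Of these, 3 were tested, and 2 of the 3 were called lower in HFLF than in LF. Cyp1a1, the best known AhR target, had 13 counts, all in HFLF replicate 4 (0.713 CPM), and 0 in the other 14 libraries. Cyp1b1, another AhR target, had 2 counts, in HF replicate 1 and HFLF replicate 3. The most measurable Cyp3a gene after Cyp3a13 was Cyp3a44, at 0.302 ± 0.140 CPM in LF, 0.600 ± 0.322 in HF and 0.532 ± 0.542 in HFLF, and was not tested.

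HF was set against LF to find the enzyme genes that differed after 20 weeks of high-fat feeding. A gene was called at a fold change over 1.2, p under 0.01 and adjusted p under 0.25, the cut-offs of the study's methods. Of 65 tested members 7 fell in HF (10.8%), against 1.58% of all tested genes called in either direction, 0.718% called higher and 0.864% called lower. The 7 were Gsta4, Gstt1, Sult1a1, Cyp2d22, Cyp2d12, Cyp2f2 and Cyp2c44, so 2 glutathione transferases, 1 sulfotransferase and 4 P450 genes of the Cyp2 family. The log2 fold change was below 0 in 51 of 65 tested members (median -0.13), against 6463 of 12961 genes (median 2e-04), and an unadjusted p under 0.05 was found for 17 members (26.2%) against 10.9% of all tested genes. Every HF library was below every LF library in 4 members (6.15%), namely Gsta4, Cyp2d22, Cyp2c44 and Gstm1, against 1.26% of all tested genes. The reverse held in no member, against 1.21%. No member rose by edgeR or by DESeq2, and of the 17 members with an unadjusted p under 0.05, 16 were lower and 1 higher. All 7 Gstm, all 3 Gstt, all 3 Mgst and all 5 Sult genes of those tested had negative values, and 2 of these genes were called. Small intestine markers had a median log2 fold change of 0.39 in the same comparison, with 2 of 7 called higher, and 1 of 8 posterior Hox genes was called lower. Fibroblast markers had a median of 0.66 over 4 tested genes and immune markers 0.33 over 5, with no call by edgeR and none at an unadjusted p under 0.05. The part of these markers in the lower enzyme genes was not tested.

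Positions are mm10, with gene identifiers and coordinates from RefSeq. Gsta4 (Entrez 14860; chr9:78191966-78209349, plus strand), which conjugates 4-hydroxynonenal and other products of lipid peroxidation, had the smallest p. Its level was 69.4, 53.5, 58.5, 64.8 and 59.8 CPM in the 5 LF libraries, 48.6, 43.9, 45.8, 48.7 and 42.9 in HF and 59.2, 56.7, 56.2, 50.4 and 64.5 in HFLF. All HF libraries lay below all LF and all HFLF libraries, while LF and HFLF overlapped. It fell in HF by 0.41 on the log2 scale (SE 0.073; edgeR adjusted p = 0.0367), kept that call under leaving out each library, and was the only member with an adjusted p under 0.05 in this comparison. HFLF exceeded HF by 0.32 (SE 0.072; edgeR adjusted p = 0.0623) and differed from LF by -0.09 (SE 0.072; edgeR adjusted p = 0.552). Its paralog Gsta3 stood at 12.5 ± 2.77, 9.52 ± 1.45 and 13.1 ± 3.62 CPM in LF, HF and HFLF, with no call (log2 fold change -0.40 in HF against LF, 0.07 in HFLF against LF and 0.47 in HFLF against HF). Without HFLF replicate 2 the last value was 0.60 and was called.

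Gstt1 (Entrez 14871; chr10:75783813-75798584, minus strand), a theta-class transferase that acts on small halogenated compounds, measured 28.2, 37.3, 28.2, 41.1 and 32.9 CPM in LF, 22.3, 23.8, 20.8, 19.5 and 28.2 in HF and 26.6, 28.4, 29.3, 22.5 and 39.6 in HFLF. HF lay below LF except that its replicate 5 reached the lowest LF values, and HFLF spread over both. It fell by 0.55 in HF (SE 0.14; edgeR adjusted p = 0.142), a call lost without LF replicate 2 (log2 fold change -0.51), HF replicate 3 (-0.51) or HF replicate 4 (-0.50). HFLF against HF gave 0.35 with no call, and a call without HF replicate 5 (0.44) or HFLF replicate 4 (0.43). Its neighbours Gstt3 (101 ± 11.7, 90.2 ± 3.27 and 92.8 ± 8.40 CPM in LF, HF and HFLF) and Gstt2 (53.6 ± 3.92, 50.9 ± 3.59 and 50.6 ± 1.93) were not called. In the mu class, Gstm1, which detoxifies electrophiles, was the member just outside the call limits. It measured 145, 144, 128, 155 and 148 CPM in LF, 126, 121, 123, 121 and 119 in HF and 129.8, 119, 139.6, 128 and 152 in HFLF, and its difference in HF of -0.24 (edgeR adjusted p = 0.138) was under the fold limit. All HF libraries of Gstm1 lay below all LF libraries, and without LF replicate 3 the difference was -0.28 and was called.

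Sult1a1 (Entrez 20887; chr7:126672870-126676357, minus strand) measured 709, 688, 606, 670.2 and 753 CPM in LF, 600.1, 625, 550.4, 562 and 489.8 in HF and 603, 641, 576, 618 and 665 in HFLF. HF was lowest on average and HFLF in between, with overlap between each pair of groups. It fell by 0.28 in HF (SE 0.067; edgeR adjusted p = 0.125), and the call was lost without LF replicate 2 (log2 fold change -0.28) or 5 (-0.24) or HF replicate 3 (-0.27) or 5 (-0.23). HFLF differed from HF by 0.13 (SE 0.066), with no call. Sult1d1, a sulfotransferase of monoamines, was 479.7 ± 89.2 CPM in LF, 463 ± 43.0 in HF and 564 ± 54.2 in HFLF, with no call in the main fit. HFLF against HF (0.28) was called by DESeq2, with the compared groups alone and without LF replicate 4 (0.28 each) or HFLF replicate 4 (0.33). HFLF against LF (0.23) was called without LF replicate 4 (0.35).

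Cyp2d22 (Entrez 56448; chr15:82370527-82380260, minus strand), of the mouse Cyp2d cluster that corresponds to human CYP2D6, measured 29.0, 38.6, 27.8, 30.2 and 35.4 CPM in LF, 25.2, 23.7, 24.8, 21.2 and 26.4 in HF and 33.2, 28.1, 30.4, 27.0 and 29.7 in HFLF. HF lay wholly below both other groups, which overlapped. It fell by 0.41 in HF (SE 0.090; edgeR adjusted p = 0.0894), a call kept under leaving out each library, and HFLF exceeded HF by 0.29 (SE 0.089; edgeR adjusted p = 0.152). The second call was lost without HF replicate 1, 2 or 4 or HFLF replicate 1, 3 or 5, with values of 0.24 to 0.31. Cyp2d12 (Entrez 380997; chr15:82555098-82559413, plus strand), a neighbour in the same cluster, measured 43.0, 74.0, 46.0, 44.1 and 41.9 CPM in LF, 33.4, 32.2, 42.9, 24.5 and 41.0 in HF and 52.4, 40.0, 36.1, 39.2 and 45.9 in HFLF. LF replicate 2 stood above every other library, and HF and LF overlapped. The fall of 0.52 in HF (SE 0.16; edgeR adjusted p = 0.240) was called with all libraries and lost without LF replicate 1, 2, 3 or 5, any HF replicate, or HFLF replicate 2 or 4, and with the compared groups alone, with values of -0.60 to -0.33.

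Cyp2f2 (Entrez 13107; chr7:27119955-27133660, plus strand), known for the oxidation of naphthalene in airway cells, was the member lower in both groups that had eaten the high-fat diet. Its level was 46.2, 77.3, 48.8, 58.5 and 53.8 CPM in LF, 38.8, 46.8, 29.7, 36.1 and 39.7 in HF and 38.6, 42.2, 33.1, 34.1 and 43.7 in HFLF. All HFLF libraries lay below all LF libraries, and HF overlapped LF by 1 library. It fell by 0.58 in HF (SE 0.13; edgeR adjusted p = 0.116) and by 0.57 in HFLF (SE 0.13; edgeR adjusted p = 0.0333), and HFLF differed from HF by 0.0029 (SE 0.13). The LF libraries are shared by both comparisons. Without LF replicate 2 (log2 fold change -0.44) or HF replicate 3 (-0.50) the call in HF was lost, and the call in HFLF was kept without each library. Cyp2c44 (Entrez 226143; chr19:44005022-44029247, minus strand), an arachidonic acid epoxygenase, was low, at 0.997, 1.44, 0.744, 0.985 and 0.901 CPM in LF, 0.440, 0.550, 0.413, 0.374 and 0.540 in HF and 0.641, 0.689, 0.712, 0.603 and 1.36 in HFLF. HF lay wholly below both other groups. It fell by 1.11 (SE 0.28; edgeR adjusted p = 0.139) on 191 counts in all, and the call was lost without LF replicate 2 (-0.96) or HF replicate 3 (-1.07), 4 (-1.05) or 5 (-1.17).

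**Figure D3:**
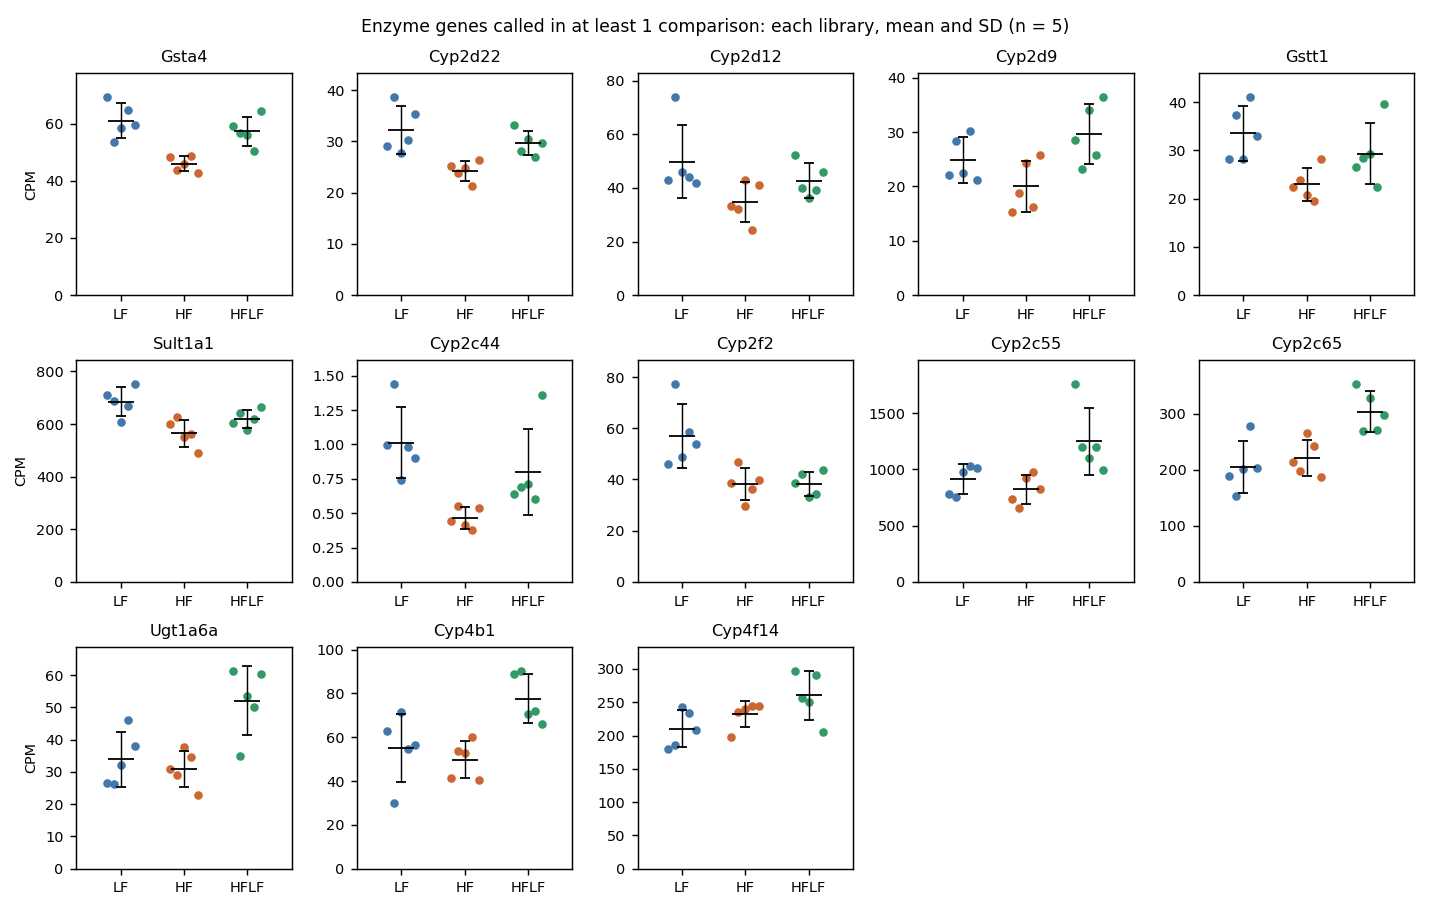
CPM (vertical axes, from 0) of the 13 members called in at least 1 comparison, in each library of the LF, HF and HFLF groups; the long bar is the mean and the whiskers 1 SD (n = 5). Gsta4, Cyp2d22 and Cyp2c44 are lower in all HF libraries than in all LF and HFLF libraries, and Cyp2c55, Cyp2c65 and Cyp4b1 are higher in all HFLF than in all HF libraries.

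HFLF was set against LF to find the enzyme genes that differed after 5 weeks of the low-fat diet. Of 65 tested members 5 rose and 1 fell in HFLF (9.23%), against 3.72% of all tested genes, or 1.85% higher and 1.87% lower. The 5 were Cyp2c55, Cyp2c65, Cyp4b1, Cyp4f14 and Ugt1a6a, so 4 P450 genes and 1 glucuronosyltransferase, and the lower member was Cyp2f2. Cyp2f2 was also the member with every HFLF library below every LF library (1.54%, against 1.87% of all tested genes), and none had the reverse (1.75% of all tested genes). Values were positive in 32 of 65 members (median -0.017) and in 6449 of 12961 genes (median -6e-04). An unadjusted p under 0.05 was found for 12 members (18.5%), close to the 16.7% of all tested genes. Colonocyte markers were higher in the same libraries, with a median log2 fold change of 0.38 over 6 genes, small intestine markers at 0.60 over 7 and posterior Hox genes at -0.41 over 8. Fibroblast markers had a median of 1.09 over 4 tested genes and immune markers 0.46 over 5, with no call. The 1 tested adipocyte marker was called higher (0.93), and its list summed to at most 12.1 CPM in HFLF. The part of all these markers in the enzyme calls was not tested.

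Cyp2c65 (Entrez 72303; chr19:39061006-39093948, plus strand), a P450 of the stomach and gut, had the smallest p. It measured 188, 153, 201, 278 and 204 CPM in LF, 213, 197, 265, 243 and 187 in HF and 353, 269, 328, 270.0 and 297 in HFLF. Every HFLF library lay above every HF library, and LF replicate 4 alone reached into the HFLF range. It rose by 0.57 over LF (SE 0.13; edgeR adjusted p = 0.0318) and kept this call without each library. Cyp2c55 (Entrez 72082; chr19:39007019-39042687, plus strand), next to it, measured 778, 757, 979, 1034 and 1009 CPM in LF, 737, 658, 922, 976 and 827 in HF and 1761, 1198, 1103, 1197 and 991 in HFLF. HFLF lay wholly above HF and overlapped LF, and HFLF replicate 1 stood apart from the rest. The rise over LF was 0.46 (SE 0.14; edgeR adjusted p = 0.106), lost without LF replicate 1 (0.40) or 2 (0.40) or HFLF replicate 1 (0.30), and with a GC trend removed (0.41).

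Ugt1a6a (Entrez 94284; chr1:88134809-88220002, plus strand), which glucuronidates phenols, measured 26.5, 26.4, 32.2, 46.2 and 38.1 CPM in LF, 30.8, 29.1, 37.6, 34.6 and 22.9 in HF and 61.3, 34.8, 53.5, 50.2 and 60.4 in HFLF. HFLF was above both other groups in all libraries but replicate 2. It rose by 0.62 over LF (SE 0.17; edgeR adjusted p = 0.0642) and by 0.75 over HF (SE 0.17; edgeR adjusted p = 0.0623), and kept both calls without each library. The Ugt1a genes share their later exons, so that 986 of the 3302 exon bases of Ugt1a6a belong to no other listed gene, and how reads in the shared exons were counted was not given in the sources used here. Ugt1a7c measured 212 ± 21.4, 198 ± 8.56 and 229.7 ± 11.6 CPM in LF, HF and HFLF, and Ugt1a1 60.5 ± 14.5, 63.2 ± 5.85 and 69.3 ± 13.2. Neither was called. The most abundant Ugt gene, Ugt2b34, was at 961 ± 63.3, 921 ± 40.0 and 999 ± 23.3 CPM and was not called either.

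In the Cyp4 family, Cyp4b1 (Entrez 13120; chr4:115624728-115647705, minus strand), an oxidase of fatty acids and of some protoxins, measured 62.9, 30.2, 71.5, 54.5 and 56.6 CPM in LF, 41.4, 53.9, 52.7, 60.1 and 40.6 in HF and 89.0, 90.4, 70.8, 72.2 and 65.9 in HFLF. HFLF lay wholly above HF and overlapped LF, where replicate 2 was lowest. It rose by 0.49 over LF (SE 0.17; edgeR adjusted p = 0.141), a call lost under the replicate block, DESeq2, upper-quartile scaling, removal of the GC trend or fitting only LF and HFLF, and also without LF replicate 2, 4 or 5, HF replicate 1, 2 or 3 or HFLF replicate 1, 2, 3 or 4, with values of 0.34 to 0.52. Cyp4f14 (Entrez 64385; chr17:32905070-32917329, minus strand) measured 180.4, 186, 242, 234 and 208 CPM in LF, 198, 236, 241, 244 and 244 in HF and 297, 257, 250.3, 291 and 205 in HFLF. The 3 groups overlapped, with 4 of 5 HFLF libraries above the highest LF library. Its rise of 0.31 (SE 0.099; edgeR adjusted p = 0.116) was lost without LF replicate 1, 2 or 5 or HFLF replicate 1, 2 or 4, and with the compared groups alone, with values of 0.25 to 0.31. Cyp3a13 was just outside the call limits, at 211 ± 14.7 CPM in LF, 224 ± 38.3 in HF and 258 ± 35.7 in HFLF (difference from LF 0.29, edgeR adjusted p = 0.174, with its unadjusted p over 0.01). It was called by DESeq2 (0.29), with the compared groups alone (0.29) and without HF replicate 1 (0.29) or HFLF replicate 5 (0.35). Cyp4f40, at 85.1 ± 12.8, 99.7 ± 8.34 and 91.7 ± 11.8 CPM, was not called.

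Formerly obese mice were then compared with obese mice directly. Of 65 tested members 7 rose in HFLF (10.8%), against 2.65% of all tested genes, with 1.23% higher and 1.42% lower. The 7 were Cyp2c55, Cyp2c65, Cyp2d9, Cyp2d22, Cyp4b1, Gsta4 and Ugt1a6a. Values were positive in 49 of 65 members (median 0.12) and in 6604 of 12961 genes (median 0.0023). The HF libraries are the same as in HF against LF. A low level in HF enters both comparisons, so they are not independent. No member fell by edgeR or by DESeq2. An unadjusted p under 0.05 was found for 17 members (26.2%) against 13.4% of all tested genes, and all 17 were higher. In 8 members (12.3%, against 1.49% of all tested genes) every HFLF library was higher than every HF library, namely Gsta4, Cyp2d22, Cyp2c44, Cyp2c55, Cyp2c65, Cyp4b1, Ugt1a7c and Ugt2b34. In no member was every HFLF library lower, against 1.89% of all tested genes. Colonocyte markers were higher too in these libraries, with a median of 0.50 over 6 genes and 3 called. Posterior Hox genes had a median of -0.22 over 8 tested genes, with 1 called lower. Stem cell markers were at -0.13 over 4 and small intestine markers at -0.02 over 7, with no call. The part of these markers in the enzyme calls was not tested.

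Cyp2c55 rose by 0.60 over HF (SE 0.14; edgeR adjusted p = 0.0751) and Cyp4b1 by 0.64 (SE 0.17; edgeR adjusted p = 0.0998), both also without each library. The rise of Cyp2c65 was 0.46 (SE 0.13; edgeR adjusted p = 0.121), lost without HF replicate 1 (0.45), 2 (0.42) or 5 (0.40). Cyp2d9 (Entrez 13105; chr15:82452377-82456827, plus strand), a steroid hydroxylase, measured 22.1, 28.4, 22.5, 30.3 and 21.1 CPM in LF, 15.2, 18.8, 24.2, 16.3 and 25.7 in HF and 28.5, 23.3, 34.1, 25.8 and 36.5 in HFLF. HF and HFLF overlapped, and HFLF replicate 5 was the highest library of all. The rise of 0.56 (SE 0.16; edgeR adjusted p = 0.109) was lost without HF replicate 1 (0.48) or HFLF replicate 5 (0.48). Ugt1a7c was just outside the call limits, at 0.21 (edgeR adjusted p = 0.120), under the fold limit. Summed over the members of a family and given as a description, the Cyp2 genes reached 2234 ± 136 CPM in LF, 2059 ± 147 in HF and 2645 ± 384 in HFLF, and the 4 Gsta genes 79.9 ± 7.26, 61.3 ± 2.89 and 78.5 ± 7.77. The sum over all members was 7787 to 9076 CPM in LF, 7393 to 8042 in HF and 8594 to 9618 in HFLF. The highest sums were those of LF replicate 4 and HFLF replicate 1, and the other libraries of these groups reached at most 8233 and 8631 CPM.

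**Figure D4:**
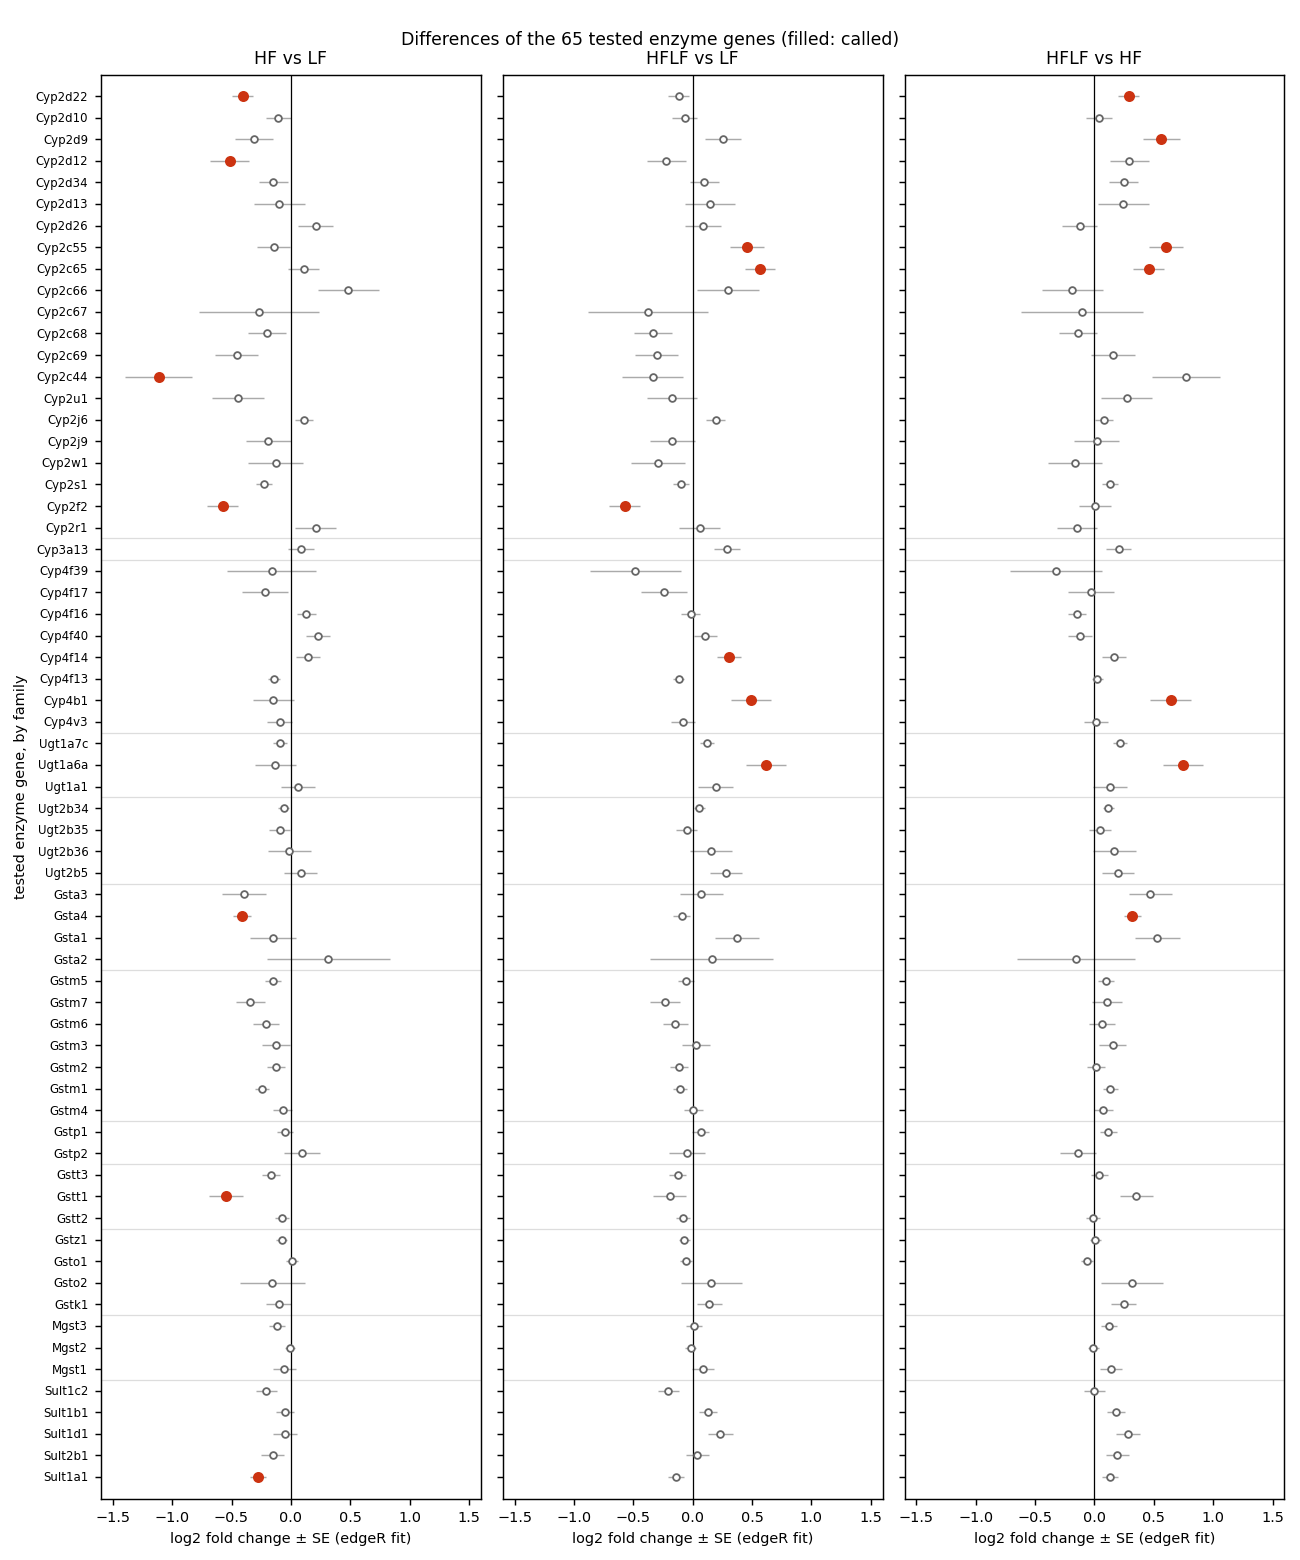
Log2 fold change with its standard error from the edgeR fit (horizontal axes) of each of the 65 tested genes, ordered by family, in the 3 comparisons; filled points are called. The 7 called genes of HF vs LF all lie below 0, the 7 of HFLF vs HF all above 0, and HFLF vs LF has 5 above and 1 (Cyp2f2) below.

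Several abundant members had no call in any comparison. Gsto1 stood at 539.5 ± 38.9, 542 ± 21.3 and 519 ± 17.1 CPM in LF, HF and HFLF, with differences of 0.0069 (SE 0.050) in HF and -0.06 (SE 0.050) in HFLF from LF. Mgst2 stood at 115 ± 3.14, 115 ± 4.81 and 114 ± 6.45 CPM, Gstp1, the pi-class transferase, at 120.3 ± 15.5, 116 ± 5.77 and 126 ± 6.64, and Gstp2 at 10.4 ± 1.76, 11.1 ± 2.46 and 10.1 ± 1.40. Gstm2 (66.1 ± 8.26, 60.5 ± 3.46 and 61.1 ± 3.69 CPM), Gstk1 (71.7 ± 14.1, 66.7 ± 4.89 and 79.1 ± 8.47), Cyp2d34 (258 ± 49.8, 233 ± 33.8 and 276 ± 31.1) and Ugt2b5 (39.6 ± 9.79, 41.9 ± 4.06 and 48.1 ± 6.10) were not called in any comparison with all libraries. Without LF replicate 4, Gstk1 (0.27) and Ugt2b5 (0.41) were called higher in HFLF than in LF. A missed call does not show equal levels.

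The Cyp2c and Cyp2d genes lie in rows of near-identical copies, and reads that fit more than 1 copy may have been split or dropped in counting, so the values of single copies are uncertain. In the Cyp2c cluster (chr19:39007019-40187286), 6 of 14 members were tested. Its first genes in order, Cyp2c55 and Cyp2c65, were called higher in HFLF. The next, Cyp2c66, differed from LF by 0.30 (SE 0.26) with no call, and Cyp2c67, Cyp2c68 and Cyp2c69 had differences from LF of -0.37, -0.33 and -0.30 and no call. In the Cyp2d cluster (chr15:82370527-82794245), 7 of 9 members were tested, and 6 of the 7 had negative values in HF (range -0.52 to 0.21) and 6 of 7 positive values in HFLF against HF (-0.12 to 0.56). Only Cyp2d22 and Cyp2d12 were called in HF, and Cyp2d22 and Cyp2d9 in HFLF against HF.

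**Figure D5:**
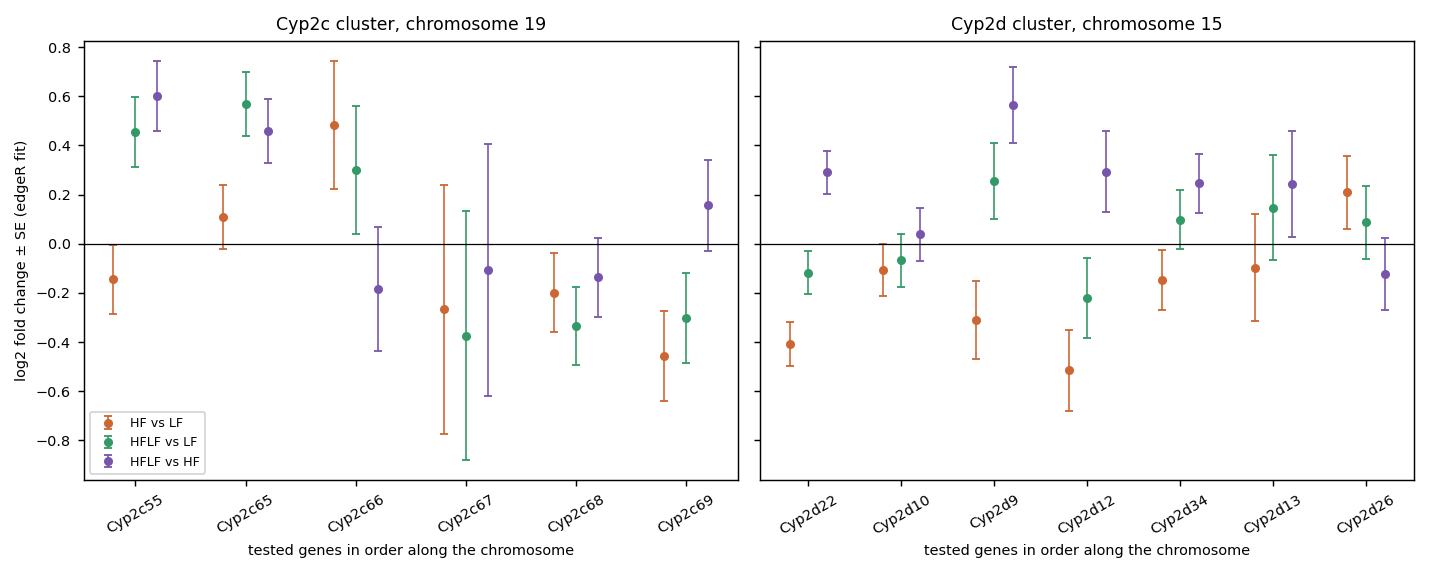
Log2 fold change ± SE from the edgeR fit (vertical axis) for the tested genes of the Cyp2c cluster (left) and the Cyp2d cluster (right), in their order along the chromosome, for 3 comparisons. Cyp2c55 and Cyp2c65 lie above 0 in HFLF vs LF (0.46 and 0.57) and Cyp2c67 to Cyp2c69 below 0, and 6 of 7 Cyp2d genes lie below 0 in HF vs LF.

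Upstream sequences are shown for Cyp2c55 and Cyp2c65, neighbours that both rose in HFLF, and for Ugt1a6a, the conjugating enzyme gene called higher there. RefSeq promoters (GRCm38.p6; 250 bases before to 50 after the start) were at hand for 114 members, but for neither Gsta4 nor Cyp2d22. They were searched on both strands for TNGCGTG (AhR-ARNT), TGACNNNGC (NRF2), CAAAGTCCA (HNF4), TTTATG (CDX) and the PPAR-RXR direct repeat. Members held the AhR-ARNT letters in 3.51% against 5.07% of 32851 promoters, the NRF2 letters in 7.02% against 12.4%, the HNF4 letters in 7.02% against 0.475%, the PPAR-RXR letters in 0 against 0.0396%, and the CDX letters in 10.5% against 11.9%. The 8 members with the HNF4 letters were 6 Cyp2c copies, which share ancestry, and Cyp3a11 and Cyp3a16. The stretches below run from 250 bases before to 10 after the start, for Cyp2c55 (chr19:39006769-39007028, plus strand), Cyp2c65 (chr19:39060756-39061015, plus) and Ugt1a6a (chr1:88134559-88134818, plus). Capitals mark the HNF4 letters, 116 bases before the start, and the NRF2 letters on the other strand at the start of Cyp2c65. Cyp2c55 and Ugt1a6a held none of the 5 motifs.
Cyp2c55 upstream: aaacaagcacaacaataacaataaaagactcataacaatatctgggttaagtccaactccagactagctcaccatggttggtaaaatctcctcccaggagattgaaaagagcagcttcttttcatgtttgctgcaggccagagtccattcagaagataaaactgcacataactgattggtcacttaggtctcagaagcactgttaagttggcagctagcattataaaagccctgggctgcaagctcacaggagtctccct
Cyp2c65 upstream: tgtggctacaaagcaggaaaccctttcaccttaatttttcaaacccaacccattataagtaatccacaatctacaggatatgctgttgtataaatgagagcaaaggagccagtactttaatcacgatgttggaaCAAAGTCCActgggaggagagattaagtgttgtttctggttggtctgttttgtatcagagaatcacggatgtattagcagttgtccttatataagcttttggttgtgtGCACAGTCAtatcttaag
Ugt1a6a upstream: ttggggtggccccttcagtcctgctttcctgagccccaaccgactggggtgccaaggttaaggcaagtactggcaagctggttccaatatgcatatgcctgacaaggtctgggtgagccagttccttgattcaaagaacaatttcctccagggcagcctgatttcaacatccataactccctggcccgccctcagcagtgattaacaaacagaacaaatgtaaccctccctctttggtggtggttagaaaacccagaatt

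Around the HNF4 letters (capitals, with 20 bases on each side, read on the strand of the gene), the tested Cyp2c copies compare as follows. They are shown because Cyp2c65 rose in HFLF and the other 3 did not, with the same 9 letters in each. The letters begin 125 bases before the start in Cyp2c67 (chr19:39649139-39649187, minus strand), 77 in Cyp2c68 (chr19:39741150-39741198, minus) and 75 in Cyp2c69 (chr19:39886816-39886864, minus), and the window of Cyp2c65 is chr19:39060870-39060918. Of the 49 bases set side by side without gaps, 27, 32 and 31 are identical to Cyp2c65. A match is a description of letters, not a measured binding site.
Cyp2c65 window: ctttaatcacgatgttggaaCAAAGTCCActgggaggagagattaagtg
Cyp2c67 window: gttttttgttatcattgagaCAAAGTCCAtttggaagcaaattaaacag
Cyp2c68 window: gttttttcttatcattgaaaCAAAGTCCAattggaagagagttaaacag
Cyp2c69 window: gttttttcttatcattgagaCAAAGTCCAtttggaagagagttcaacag

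Genes that serve these enzymes were read from lists of regulators, redox partners, cofactor supply, other oxidising and hydrolysing enzymes, other conjugating enzymes and efflux pumps. Among 13 tested regulators, edgeR called none in HF and 1 in HFLF against LF, beside 1.58% and 3.72% of all tested genes. In HF 3 had an unadjusted p under 0.05, beside 10.9% of all tested genes. Ahr was at 27.0 ± 2.71, 27.8 ± 2.22 and 27.3 ± 1.28 CPM in LF, HF and HFLF, Nr1i2 at 131 ± 7.29, 127 ± 5.99 and 121 ± 8.46, and Nfe2l2 at 388 ± 22.7, 360 ± 14.5 and 392 ± 9.92. Nr1h4, the bile acid receptor FXR, rose in HFLF from 114 ± 5.02 to 138 ± 9.36 CPM, a log2 difference of 0.27 (SE 0.057; edgeR adjusted p = 0.0260), just over the fold limit of 0.263. Without LF replicate 2, 3 or 5 or HFLF replicate 1, 2 or 4 it was at 0.25 to 0.26, under that limit. None of 8 tested redox partners was called in any comparison by edgeR, and Por was at 189 ± 4.29, 200.3 ± 7.86 and 192 ± 7.42 CPM. An unadjusted p under 0.05 was found for 2 in HF against LF, 0 in HFLF against LF and 1 in HFLF against HF. Of all tested genes 10.9%, 16.7% and 13.4% had such a p in these comparisons. The 6 tested genes of other conjugating enzymes had no call by edgeR either, with 1, 1 and 2 at an unadjusted p under 0.05 in the same order.

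Cofactor supply had 15 tested genes, of which 1 rose in HF against LF, 2 in HFLF against LF and 2 in HFLF against HF, against 0.718%, 1.85% and 1.23% of all tested genes called higher. Slc35d1, which carries UDP-glucuronic acid to the site of glucuronidation, measured 66.2, 51.9, 72.4, 79.2 and 62.9 CPM in LF, 66.9, 62.4, 82.1, 71.9 and 62.0 in HF and 96.5, 81.2, 96.9, 95.3 and 92.7 in HFLF. Every HFLF library was above every LF library. It rose by 0.48 over LF (SE 0.096; edgeR adjusted p = 0.0245) and by 0.42 over HF (SE 0.096; edgeR adjusted p = 0.0623). Papss2, which makes the sulfate donor, rose in HFLF from 684 ± 114 to 905 ± 144 CPM (0.40, SE 0.12; edgeR adjusted p = 0.0833), a call lost without LF replicate 1 (0.35), 2 (0.36) or 3 (0.38) or HFLF replicate 3 (0.31). Ggt1, which splits glutathione and its conjugates outside the cell, rose in HF from 4.15 ± 1.07 to 7.82 ± 2.32 CPM (0.91, SE 0.21; edgeR adjusted p = 0.111), lost without LF replicate 2 (0.82) or HF replicate 3 (0.89) or 5 (0.73). In HFLF against HF it differed by -0.58, with no call in the main fit and a call in 8 of 24 alternatives, DESeq2 among them. Slc26a2, a sulfate carrier, rose in HFLF over HF by 0.27 (SE 0.089; edgeR adjusted p = 0.179).

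Of 35 tested genes of other oxidising and hydrolysing enzymes, 1 rose and 1 fell in HF against LF, 2 rose and 2 fell in HFLF against LF, and 4 rose in HFLF against HF. Of all tested genes 1.58%, 3.72% and 2.65% were called in these comparisons. Ephx1, the microsomal epoxide hydrolase, fell in both groups that had eaten the high-fat diet. It measured 30.8, 27.0, 26.3, 25.8 and 29.1 CPM in LF, 20.5, 21.7, 18.0, 18.8 and 18.2 in HF and 17.0, 23.1, 20.6, 19.3 and 22.5 in HFLF. Both groups lay wholly below LF, with falls of 0.52 (SE 0.084; edgeR adjusted p = 0.0220) and 0.44 (SE 0.083; edgeR adjusted p = 0.0221) against the same LF libraries. Akr1c13, an aldo-keto reductase, was 242 ± 28.9, 214 ± 9.89 and 267 ± 19.0 CPM and rose in HFLF over HF by 0.32 (SE 0.069; edgeR adjusted p = 0.0569). Maoa, the monoamine oxidase, was 1518 ± 251, 1337 ± 114 and 1699 ± 131 CPM and rose in HFLF over HF by 0.35 (SE 0.093; edgeR adjusted p = 0.101), lost without HF replicate 1 (0.30) or HFLF replicate 5 (0.30). The other genes called, some of them named here after their values were seen, were the carboxylesterase Ces2b, higher in HF (0.71), Ces2e (0.43) and Akr1c19 (0.30), higher in HFLF than in LF, the alcohol dehydrogenase Adh1, lower in HFLF than in LF (-0.39), and Ces1f (0.43) and the retinal dehydrogenase Aldh1a1 (0.71), higher in HFLF than in HF.

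Of 9 tested efflux pumps, 1 was called in HF against LF, 2 in HFLF against LF and 1 in HFLF against HF, beside the same 1.58%, 3.72% and 2.65% of all tested genes. Abcc4 fell from 21.7 ± 0.933 CPM in LF to 17.5 ± 0.329 in HF (-0.31, SE 0.064; edgeR adjusted p = 0.0723) and 17.7 ± 1.55 in HFLF (-0.29, SE 0.064; edgeR adjusted p = 0.0268). Without HFLF replicate 1 the second value was -0.25 and lost its call. Abcc3, a basolateral exporter of glucuronides, was 464 ± 26.6, 444 ± 26.7 and 543 ± 48.4 CPM and rose in HFLF over HF by 0.29 (SE 0.062; edgeR adjusted p = 0.0541), lost without HFLF replicate 1 (0.25). Abcg2, an exporter of sulfates and dietary carcinogens, rose in HFLF from 113 ± 23.1 to 146 ± 15.4 CPM (0.38, SE 0.12; edgeR adjusted p = 0.0970), a call lost without LF replicate 1, 2 or 3 or HFLF replicate 1, 3 or 5, with values of 0.31 to 0.36.

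DNA methylation gave a readout that did not enter the counts. The deposited list held 8199 regions that differed between HF and LF. Within 5 kb of the gene body, 6 of 134 members had such a region (4.48%), against 15.2% of all gene entries, and gene length was not matched. In the gene body itself it was 4 members (2.99%, against 11.2%), and within 50 kb 37 members (27.6%, against 39.9%). They were Cyp4f39, Gstt1, Gstt3, Mgst2, Sult2a4 and Sult4a1. Gstt1 was the only called member among them. Its region (chr10:75779330-75779494, less methylated in HF) lies 4319 bases beyond the end of Gstt1 and in an intron of Gstt3, 2002 bases from the start of that gene. Gstt1 fell in HF, as given above, and Gstt3 was not called. The region in an intron of Mgst2 (chr3:51663631-51663786, more methylated in HF) goes with a gene whose level differed by -0.0078 (SE 0.044) in HF. The CpGs at both ends of the Gstt region are in capitals, and the region is shown on the plus strand because it is the methylation change nearest a called member.
Gstt1 and Gstt3 region: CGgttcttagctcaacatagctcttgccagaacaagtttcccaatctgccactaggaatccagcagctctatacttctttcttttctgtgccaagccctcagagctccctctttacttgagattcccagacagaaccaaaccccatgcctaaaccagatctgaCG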

How the data were processed

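RNA-seq of colonic epithelium came from 15 mice, 5 per regimen. According to the study's methods and the submitters' processing notes, the authors mapped reads to mm10 with TopHat2 2.0.4 and deposited raw HTSeq counts per gene, not normalized. The strand setting, overlap mode and annotation release were not given in the sources used here. For the deposited DMR list, the authors mapped bisulfite reads with Bismark and called CpGs and regions with a Rao-Scott likelihood ratio test. It gives a position and a direction with no value per mouse. The authors' DESeq2 tables of fold changes and p-values were not used, and bisulfite amplicons had 0 of 253 CpG entries within 50 kb of a member.

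Counts were scaled by TMM and filtered with filterByExpr. They were tested with edgeR 4.0.16 in R 4.3.3 (quasi-likelihood, group only, all 15 libraries, two-sided, Benjamini-Hochberg over 12961 genes). A call needed a fold change over 1.2, p under 0.01 and adjusted p under 0.25. The fit was also run on simulated data as a check of the code. Its outcome is not given here, and no result rests on it. Levels per kb divide CPM by exon bases that no other listed gene on the same strand shares. The p-values set a group difference against the spread between mice within groups, estimated for each gene from all 15 libraries (5 per group). Precision is limited by 15230391 to 22762095 counts per library.

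Genes named were the called members, the member just outside the call limits in each comparison, the 2 highest per family, and called genes and known switches from the pathway lists. The members and lists were chosen with earlier results of these data known. Alternatives were other scalings, filters and cut-offs, DESeq2 1.42.0, a replicate block, removal of a GC trend, fits of the compared groups alone, leaving out each library, and other windows around genes for the DMRs.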

Additional observations from a re-analysis of the deposited data

Results flagged for a closer look

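In each group of 5 libraries, the highest and the lowest library were compared with the rest of the group by Dixon's ratio. Of 132 groups checked 10 were flagged, and chance flags about 1 in 20. Among called members, Cyp2c55 in HFLF replicate 1 was at 1760 CPM with the next library at 1200, Cyp2d12 in LF replicate 2 at 74 with the next at 46, Cyp2c44 in HFLF replicate 5 at 1.36 with the next at 0.712, and Cyp4f14 in HF replicate 1 at 198 with the next at 236. Mgst2 in HFLF replicate 3 was at 103 CPM with the next at 115. In the pathway lists, Slc35d1 in HFLF replicate 2 was at 81.2 CPM with the next at 92.7, and Akr1c13 in LF replicate 4 at 292 with the next at 238. Cyp1a1 in HFLF replicate 4 was at 0.713 CPM, and Cyp1b1 was at 0.0629 in HF replicate 1 and 0.0445 in HFLF replicate 3, each on few counts with 0 in the rest of its group.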

How the results depend on the processing

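The 7, 6 and 7 members called in HF vs LF, HFLF vs LF and HFLF vs HF became 1 (Gsta4), 2 (Cyp2c65 and Cyp2f2) and 0 at an adjusted p under 0.05 with no fold limit. Of 12961 tested genes, 16, 282 and 25 were called at that cut-off. Leaving out 1 library gave 2 to 9 calls in HF vs LF, lowest without LF replicate 2 or HF replicate 3 (2 each) and at 4 without HF replicate 4 or 5. The same step gave 3 to 10 in HFLF vs LF (3 without LF replicate 2 or HFLF replicate 1, 10 without LF replicate 4) and 4 to 9 in HFLF vs HF (4 without HF replicate 1). DESeq2 called 7, 6 and 9 members, beside 266, 522 and 351 of 12961 tested genes. Under the 24 alternatives run for each count, no member was called higher in HF vs LF or lower in HFLF vs HF, and no called value changed sign. Values near 0 with no call did change sign in places, such as Ugt1a6a in HF vs LF (-0.21 to 0.0082 without 1 library) and Gsta3 in HFLF vs LF (-0.03 to 0.20). Within 50 kb in place of 5 kb, 37 members had a DMR. Removing the GC trend moved all genes called in HFLF vs HF from 343 to 231. It left 4 members called in HFLF vs LF, beside 466 of 12961 tested genes, and the calls of Nr1h4 (0.24) and Abcg2 (0.34) were lost. Same-numbered libraries had correlations of -0.231 to 0.333, and 5 of 15 such pairs matched best. These were replicate 2 in each pair of groups (0.197, 0.22 and 0.163) and replicate 3 for LF with HF (0.148) and HF with HFLF (0.333). Replicates 1, 4 and 5 never matched best, so the numbers gave no general pairing, while a partial one was not tested further. The replicate block gave 8, 6 and 7 calls, beside 252, 537 and 346 of 12961 tested genes. Near-identical copies limit single-gene values in the Cyp2c, Cyp2d, Gstm and Ugt clusters, and members under about 122 counts in total were not tested.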
